A study of Mus musculus with 16 samples.

Results

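The nuclear-encoded subunits of respiratory complex I were followed in liver and in eWAT, a white adipose tissue, of male C57BL/6J mice aged 14 weeks. They were chosen by name, as the probe sets whose gene symbol begins with Ndufa, Ndufb, Ndufc, Ndufs, Ndufv or Ndufab, without the assembly factors (Ndufaf) and without pseudogenes. The rule found 38 genes, each with 1 probe set, among 19505 genes with a symbol on the array. The F1 mice were offspring of obese fathers, which ate fat-rich food with 45% lipid over 12 weeks, beginning when they were 8 weeks old, and then sired the litters of control females. The CT mice had control fathers on chow. Liver F1, liver CT, eWAT F1 and eWAT CT each held 4 libraries, 16 in all, and every value below is the authors' deposited log2 expression value unless another scale is named. Which fathers, litters or cages the mice shared is not given in the sources used here. P-values therefore measure only the spread between these samples.

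Complex I passes electrons from NADH to ubiquinone and pumps protons across the inner mitochondrial membrane. Its matrix arm holds the flavin and the iron-sulfur clusters, and its membrane arm holds the proton channels. The core subunits carry out this chemistry and are shared with bacteria. The accessory subunits surround them and are needed for assembly or stability. The core of the membrane arm is encoded by mitochondrial DNA. Liver uses the chain during fatty acid oxidation and gluconeogenesis, and white adipose tissue uses it during adipocyte differentiation and lipid synthesis.

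Of the 38 genes, 6 encode core subunits of the matrix arm, 9 encode accessory subunits of the matrix arm and 19 encode accessory subunits of the membrane arm. Ndufab1 encodes the mitochondrial acyl carrier protein, which sits in both arms. Ndufb4b is a gene copy closely related to Ndufb4, so the signals of these 2 probe sets cannot be attributed to 1 gene with certainty. Ndufa4 and Ndufa4l2 keep the Nduf name although Ndufa4 is now placed in complex IV, cytochrome c oxidase. The subunit Ndufb1 and the 7 mitochondrially encoded subunits were not analysed here. Relative to all 19505 genes, the median member stood at percentile 83.0 of brightness in eWAT F1, 80.5 in eWAT CT, 86.1 in liver F1 and 86.8 in liver CT. Brightness depends on the probes as well as on the transcript, so an order of array values is not an order of levels. The brightest probe set, that of Ndufa4, averaged 13.97 ± 0.17 in eWAT F1, 13.67 ± 0.15 in eWAT CT, 14.18 ± 0.21 in liver F1 and 14.20 ± 0.08 in liver CT (SD, n = 4 each).

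Adiponectin (Adipoq), a defining adipocyte transcript, read 18.95 to 19.24 in the 8 eWAT libraries and 3.45 to 4.25 in the 8 liver libraries, and the hepatocyte list had medians of 19.81 to 19.92 in the liver libraries. Several libraries held transcripts of other tissues. Library eWAT F1 1 carried a seminal vesicle signal, with a list median of 11.20 against 2.73 to 3.22 in the other 7 eWAT libraries, and eWAT CT 4 carried a testis and sperm signal of 9.24 against 3.01 to 3.24 in the other 7. The hepatocyte list read 11.93, 14.27, 11.56 and 15.76 in the eWAT F1 libraries, against 8.70, 7.41, 14.30 and 14.27 in the eWAT CT libraries. Library liver F1 4 carried exocrine pancreas transcripts, with a list median of 12.13 against 4.16 to 5.22 in the other 7 liver libraries. The counts and medians in eWAT, in liver and for the interaction are given with and without these libraries.

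In eWAT, complex I subunits had higher mean values in F1 than in CT almost throughout, and none was called. Of the 38 members, 37 had a higher mean in F1 and 1, Ndufa4l2, had a lower mean. Their median difference was 0.44 on the log2 scale, a 1.35-fold ratio, while the median over all 14773 genes tested was 0.00. With limma, 0 of 38 members passed an adjusted p under 0.05, the call rule used throughout, and 0 of the 14773 genes did (0%). At an unadjusted p under 0.05, 16 of 38 members were higher in F1 and 0 were lower, where the share of all genes higher at that p was 4.97%. In 13 of 38 members all 4 F1 values exceeded all 4 CT values, where 2.9% of all genes did so. The smallest adjusted p among the members was 0.384 (limma). In bulk tissue, fewer cells of a type and less RNA per cell cannot be told apart.

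**Figure D1:**
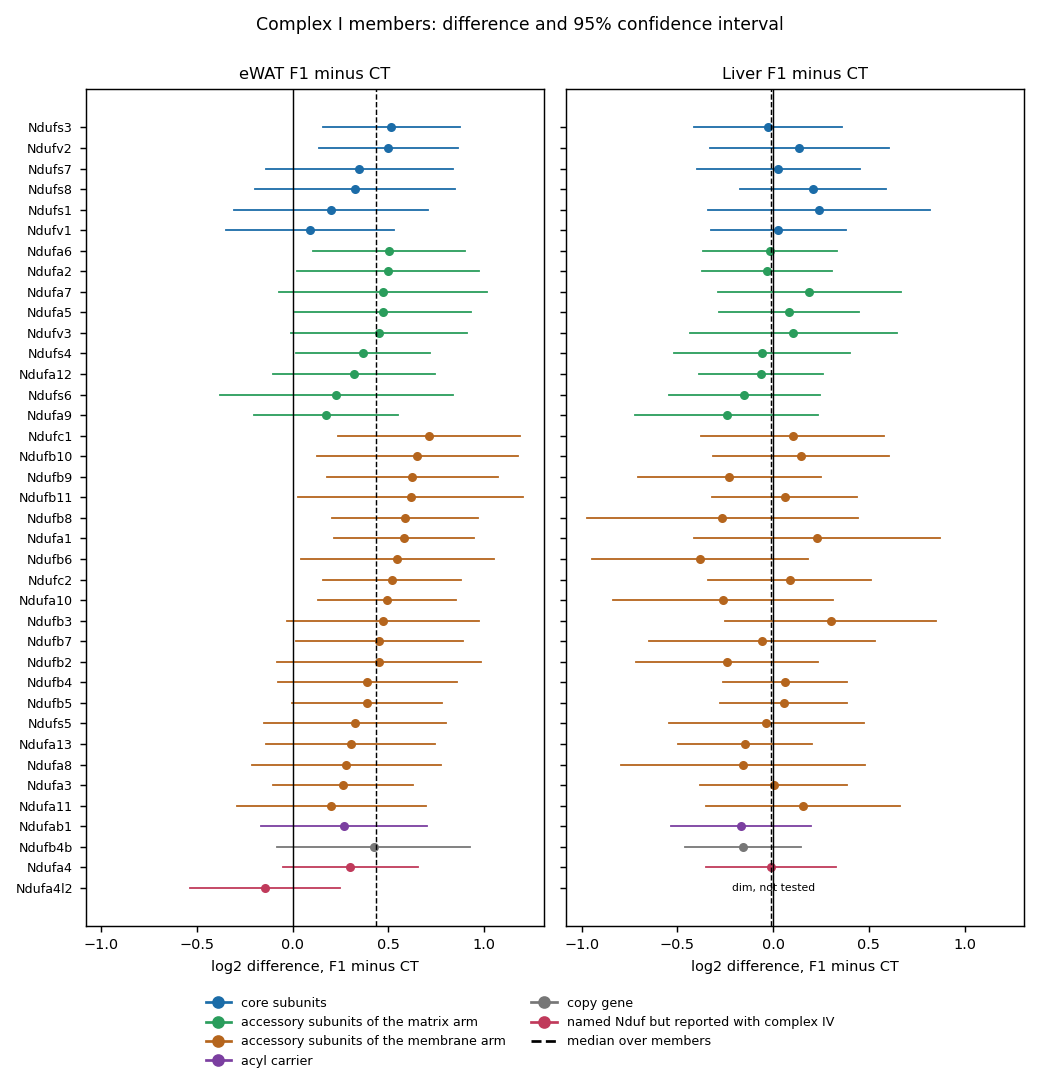
F1 minus CT difference of each complex I member on the log2 scale (horizontal axis) in eWAT (left) and in liver (right), with points for the difference, lines for its 95% confidence interval, colours for the place of the subunit and a dashed line for the median over members. In eWAT 37 of 38 points lie right of 0 around a median of 0.44, and in liver 18 of 37 do around a median of -0.01.

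The core subunits of the matrix arm bind NADH and carry the iron-sulfur clusters. All 6 had a higher mean in eWAT F1, by 0.09 to 0.52 with a median of 0.34, and 2 of them had an unadjusted p under 0.05. Ndufs3, a core subunit near the ubiquinone site, read 12.63, 12.32, 12.20 and 12.43 in the eWAT F1 libraries, against 11.92, 11.66, 12.00 and 11.94 in the CT libraries. The groups did not overlap, and the difference was 0.52 ± 0.16 (SE), a 1.43-fold ratio, with an unadjusted p of 0.00964 and an adjusted p of 0.389 (limma). Ndufv2, which carries an iron-sulfur cluster beside the flavin, differed by 0.50 ± 0.16 without overlap. Ndufv1, the subunit that binds NADH and the flavin, differed by 0.09 ± 0.19, and its 95% confidence interval ran from -0.35 to 0.53. Ndufs1, the iron-sulfur subunit of the NADH-oxidising module, differed by 0.20 ± 0.23, and both groups overlapped. The iron-sulfur subunits Ndufs7 and Ndufs8 lay between these values, at 0.35 ± 0.22 and 0.33 ± 0.23.

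Among the accessory subunits of the matrix arm, 9 of 9 had a higher mean in eWAT F1, by 0.17 to 0.50 with a median of 0.45, and 4 had an unadjusted p under 0.05. Ndufa6, a protein of the LYR family that holds an acyl carrier protein on the complex, read 11.16, 11.02, 11.11 and 11.29 in F1, against 10.41, 11.05, 10.56 and 10.55 in CT. Library eWAT CT 2 reached into the F1 range, while the other 3 CT libraries lay below it, and the difference was 0.50 ± 0.18. Ndufa2, a subunit with a thioredoxin-like fold, read 12.65, 11.90, 12.06 and 11.67 in F1, against 11.56, 11.59, 11.56 and 11.58 in CT. Its 4 CT libraries differed by at most a few hundredths, and the lowest F1 library stood just above them. Ndufs4, whose loss in mice gives a model of Leigh syndrome, differed by 0.37 ± 0.16 without overlap, and Ndufa5 by 0.47 ± 0.20 with overlap. Ndufv3, a small subunit of the NADH-oxidising module, differed by 0.45 ± 0.20. It did not overlap between groups although its unadjusted p was 0.0536. Groups overlapped for Ndufa12 (0.32 ± 0.19), for Ndufs6 (0.23 ± 0.27) and for Ndufa9, the smallest difference of this set (0.17 ± 0.17).

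Accessory subunits of the membrane arm, which are 19 of the 38 members, held 10 of the 16 members with an unadjusted p under 0.05. All 19 had a higher mean in eWAT F1, by 0.20 to 0.71 with a median of 0.47, and in 8 of them the groups did not overlap. Ndufc1, a small membrane subunit, read 12.50, 12.03, 11.80 and 11.70 in F1, against 11.31, 11.01, 11.31 and 11.56 in CT. All F1 libraries lay above all CT libraries, and the difference of 0.71 ± 0.21 (1.64-fold, adjusted p = 0.389 with limma) was the largest among the members. Ndufc2, the membrane subunit that lies beside Ndufc1, read 14.05, 13.58, 13.56 and 13.61 in F1, against 13.25, 13.20, 13.15 and 13.13 in CT. Its CT libraries were close together, library eWAT F1 1 was the highest, and the difference was 0.52 ± 0.16 (1.43-fold).

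Ndufa1, a short membrane-spanning subunit needed for assembly, had the smallest p of all members. It read 11.88, 12.19, 11.67 and 11.72 in F1, against 11.22, 11.24, 11.26 and 11.42 in CT. The lowest F1 library stood above the highest CT library, and the difference was 0.58 ± 0.16 (1.49-fold, unadjusted p = 0.00569, adjusted p = 0.384 with limma). Ndufb8, often used as a marker of assembled complex because the protein is lost when assembly fails, read 9.43, 9.23, 9.57 and 9.37 in F1, against 9.07, 8.87, 8.82 and 8.49 in CT. Here library eWAT F1 3 was the highest, the groups did not overlap, and the difference was 0.59 ± 0.17 (adjusted p = 0.388 with limma). Ndufb9, another LYR protein, read 12.52, 12.06, 11.93 and 11.64 in F1, against 11.34, 11.51, 11.33 and 11.47 in CT. Its F1 libraries spread more widely than its CT libraries without reaching them, and the difference was 0.63 ± 0.20 (1.54-fold, adjusted p = 0.396 with limma).

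**Figure D2:**
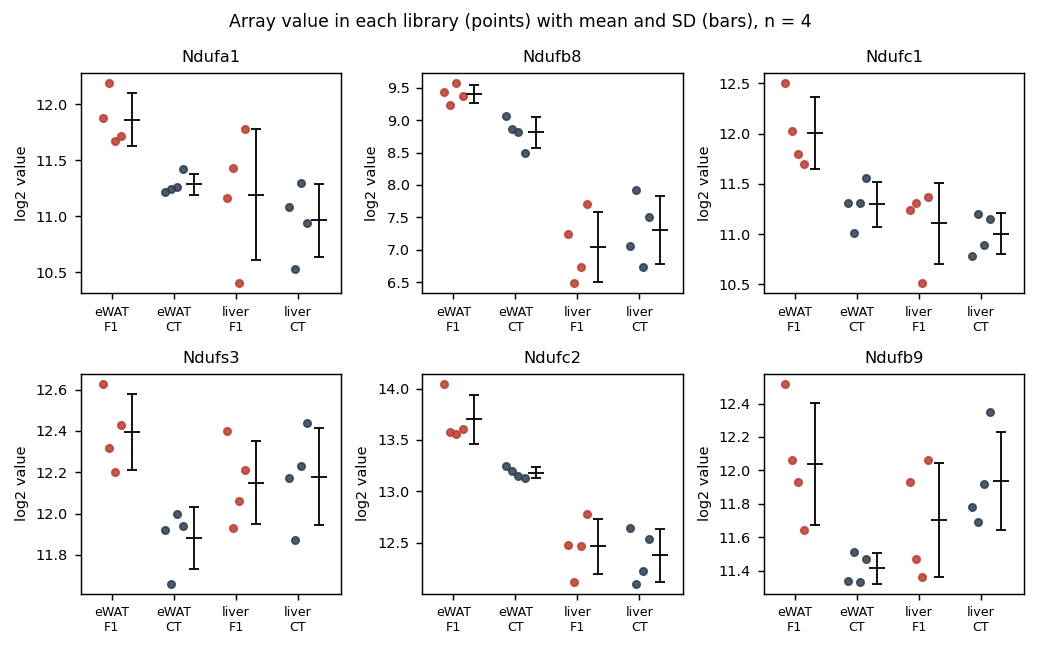
Array value (log2, vertical axis) of the 6 members with the smallest p in eWAT, in every library of eWAT F1, eWAT CT, liver F1 and liver CT, with the mean and SD of each group (n = 4). In eWAT the F1 points lie above the CT points in all 6 panels, and in liver the groups overlap in all 6.

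The other membrane-arm subunits with an unadjusted p under 0.05 were Ndufa10, Ndufb10, Ndufb6, Ndufb11 and Ndufb7. Ndufa10, which has the fold of a nucleoside kinase, differed by 0.49 ± 0.16, and Ndufb10 by 0.65 ± 0.23, both without overlap. Ndufb11 differed by 0.62 ± 0.26 and overlapped, because library eWAT F1 4 read 9.23, below the 9.65 of library eWAT CT 1. The smallest differences of this arm were those of Ndufa11 (0.20 ± 0.22), Ndufa3 (0.26 ± 0.16) and Ndufa8 (0.28 ± 0.22), none with an unadjusted p under 0.05. Ndufa13, also known as GRIM-19, a regulator of cell death, differed by 0.30 ± 0.20. The remaining subunits of this arm lay between these values, with 0.39 ± 0.17 for Ndufb5, 0.47 ± 0.22 for Ndufb3, 0.45 ± 0.24 for Ndufb2 and 0.33 ± 0.21 for Ndufs5. Their groups overlapped.

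Outside these arms, Ndufab1 differed by 0.27 ± 0.19, Ndufa4 by 0.30 ± 0.16 and the copy gene Ndufb4b by 0.42 ± 0.22. Ndufb4 itself, a membrane-arm subunit, differed by 0.39 ± 0.21. Ndufa4l2, a gene induced by low oxygen, read 7.19, 7.20, 7.13 and 7.47 in eWAT F1, against 7.61, 7.60, 7.12 and 7.24 in CT. The groups overlapped, CT libraries 1 and 2 lay above every F1 library, and the difference was -0.15 ± 0.17 with a 95% confidence interval from -0.53 to 0.24. Ndufa7, a matrix-arm subunit with the dimmest probe set of the members in eWAT, read 6.19, 6.80, 6.72 and 6.85 in F1, against 5.82, 5.89, 6.24 and 6.72 in CT, a difference of 0.47 ± 0.24.

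Counted by library, the difference was spread over all 4 eWAT F1 libraries. Against the CT mean of each gene, 37, 35, 35 and 34 of 38 members were higher in eWAT F1 1, 2, 3 and 4, with median deviations of 0.60, 0.36, 0.37 and 0.24. In eWAT CT 1, 2, 3 and 4 themselves, 23, 29, 14 and 11 of 38 members were above that mean, with median deviations of 0.06, 0.15, -0.04 and -0.10. The median value over the 38 members was 11.27, 11.21, 11.21 and 11.17 in the F1 libraries, against 10.85, 11.01, 10.74 and 10.69 in the CT libraries. These library medians did not overlap between groups. Among the F1 libraries, eWAT F1 1 had the highest value in 29 of 38 members. Of all 8 eWAT libraries, eWAT CT 4 had the lowest value in 17 members and eWAT CT 3 in 13.

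**Figure D3:**
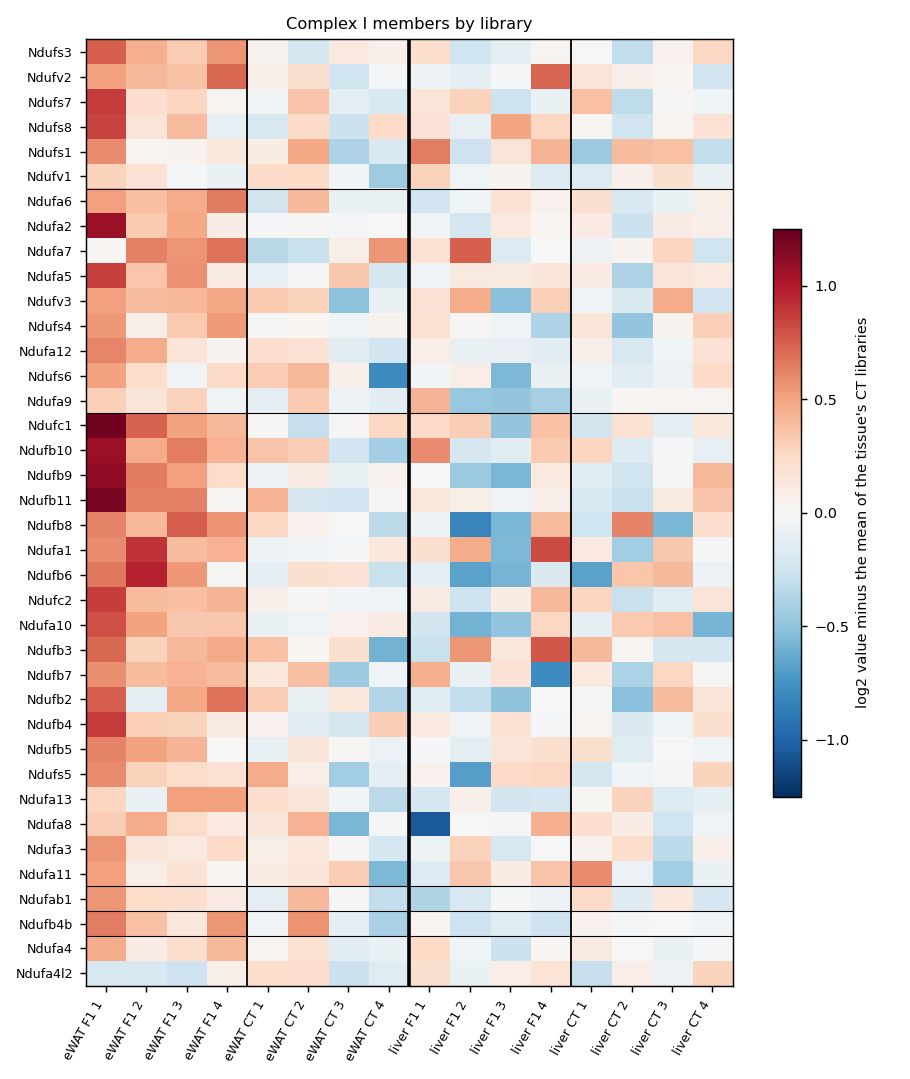
Log2 value of each member in each library minus the mean of the CT libraries of the same tissue (colour, red higher and blue lower), with members in rows by place in the complex and libraries in columns. The eWAT F1 columns are red in 34 to 37 of 38 rows and the eWAT CT columns in 11 to 29. The liver F1 columns lie above the CT mean in 13 to 25 rows.

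The 2 libraries at these extremes were also those with transcripts of the male tract. Without eWAT F1 1 the median difference over members was 0.33 and 10 members had an unadjusted p under 0.05, as also without eWAT F1 3. Without both eWAT F1 1 and eWAT CT 4 it was 0.28, with 34 of 38 members higher in F1 and 9 members at an unadjusted p under 0.05. All F1 values then exceeded all CT values in 15 of 38 members, where 6.21% of all genes did so with these 6 libraries. Within the 4 libraries with lower hepatocyte signal (F1 1 and F1 3 against CT 1 and CT 2) the median difference was 0.42, and within the 4 with higher signal (F1 2 and F1 4 against CT 3 and CT 4) it was 0.40. The hepatocyte signal was not equal within these sets, and the F1 libraries of the lower set, at 11.93 and 11.56, still stood above its CT libraries, at 8.70 and 7.41. With the hepatocyte list as a covariate the median difference was 0.48. The part of the hepatocyte signal was not tested beyond these values. Apart from leaving out eWAT F1 1 or eWAT F1 3 alone, these alternatives were chosen after seeing the data, and 0 members were called in any of them.

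Other cell type lists were also compared between the eWAT groups. Of all 14773 genes tested there, 9.99% had an unadjusted p under 0.05 in either direction. The macrophage list read 11.05, 11.12, 11.27 and 11.83 in F1, against 11.93, 12.36, 11.73 and 12.69 in CT, with 11 of 12 tested markers lower in F1, 4 of them at an unadjusted p under 0.05 and 0 called. The endothelium list median read 10.82 to 11.11 in F1 and 11.18 to 11.53 in CT, and in each eWAT library it was the value of Tek alone. Of the 7 endothelium markers, 4 were lower and 3 higher in F1, 1 had an unadjusted p under 0.05 and 0 were called. Vwf separated the other way from Tek, at 10.65 to 10.91 in F1 and 9.83 to 10.52 in CT. The skeletal muscle list read 3.34 to 3.80 in F1 and 3.71 to 5.66 in CT, with 7 of 9 markers lower, 3 at that p and 0 called. The fibroblast list read 13.98 to 14.66 in F1 and 13.93 to 15.35 in CT, with 6 of 7 markers lower, 1 at that p and 0 called. The adipocyte list read 17.41 to 17.71 in F1 and 17.30 to 17.87 in CT, with overlap. Of its 11 tested markers 9 were higher and 2 lower in F1, 2 had an unadjusted p under 0.05 and 0 were called. The brown adipocyte list, genes of heat-producing fat cells, read 4.60 to 5.94 in F1 and 4.46 to 4.71 in CT, with overlap. Its highest median, 5.94, was that of eWAT F1 1, the library with the seminal vesicle signal. Of the brown adipocyte markers, 7 of 8 tested were higher in F1. Of those tested, 3 had an unadjusted p under 0.05 and 0 were called. Elovl3, a marker of this list, read 14.91 to 18.19 in liver, and in eWAT 4.59 to 9.92 in F1 and 3.30 to 9.90 in CT. Cidea, a lipid droplet protein of brown fat, read 7.60, 4.90, 5.0 and 5.51 in F1, against 4.17, 4.08, 4.39 and 4.73 in CT. Ucp1, the uncoupling protein that defines brown fat, read 2.01 to 2.35 in F1 and 2.14 to 2.74 in CT. These values lay below the dim limit of 3.47 in eWAT, so Ucp1 was not tested. The part of these cell types in the complex I difference was not tested.

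**Figure D4:**
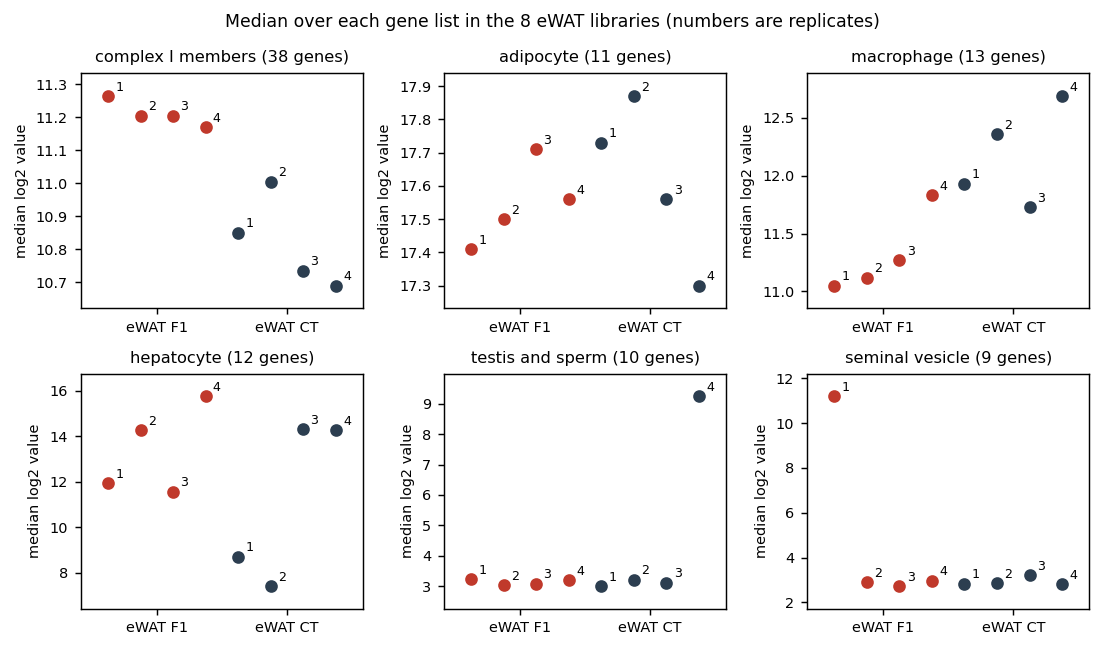
Median log2 value over the complex I members and over 5 cell type lists (vertical axes) in each eWAT F1 and eWAT CT library, numbered by replicate. The complex I medians of F1 (11.17 to 11.27) lie above those of CT (10.69 to 11.01), the macrophage medians are mostly lower in F1, and single libraries stand apart in the testis and seminal vesicle lists.

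Within the eWAT groups the members also moved together from library to library. After each group's mean was subtracted, a member's correlation with the mean of the other members over the 8 eWAT libraries had a median of 0.59, against 0.04 for the 14735 other genes set against the members' mean. Ndufs7 (0.93), Ndufb10 (0.93), Ndufa3 (0.88) and Ndufs1 (0.88) were the most alike in this sense. Ndufa1 (-0.13) and Ndufa7 (-0.93) were the members with a negative value. Ndufa7 was highest among CT in eWAT CT 4, where most other members were low. Without eWAT F1 1 and eWAT CT 4, also chosen after seeing the data, the median was 0.47 against 0.06 for the other genes, and 10 of 38 members were negative. In liver the median correlation was 0.26, and 10 of 37 members were negative. All members of a library share its array and RNA, so these values describe the libraries.

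In liver, complex I subunits lay on both sides of 0 in the comparison of F1 with CT. Of 37 tested members, 18 had a higher and 19 a lower mean in F1, the median difference was -0.01, and single differences ran from -0.38 to 0.30. With limma 0 of 37 members were called, where 0.156% of 14722 genes were. At an unadjusted p under 0.05 there were 0 of 37 members, where 9.14% of all genes reached that p, and 1 member without liver F1 1 or liver CT 1. Without liver F1 4 the median difference was -0.02, with 18 members higher and 0 at that p. In 0 of 37 members did the groups separate, where 5.37% of all genes did. Each member's 95% confidence interval included 0, and in 19 of 37 it lay wholly below the eWAT median difference of 0.44. Ndufa4l2 was too dim to be tested, at 4.01, 3.72, 3.89 and 3.98 in liver F1, against 3.52, 3.89, 3.73 and 4.08 in liver CT.

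The liver members with the smallest p went in both directions. Ndufb6, a membrane-arm subunit, read 10.80, 10.24, 10.33 and 10.73 in liver F1, against 10.24, 11.25, 11.31 and 10.83 in liver CT. Library liver CT 1 was as low as the lowest F1 library, so the groups overlapped, and the difference was -0.38 ± 0.25 (adjusted p = 0.705 with limma). Ndufb3, another membrane-arm subunit, read 7.98, 8.81, 8.40 and 9.03 in F1, against 8.66, 8.28, 8.04 and 8.04 in CT. Here liver F1 1 was the lowest of all 8 and liver F1 4 the highest, and the difference was 0.30 ± 0.25 (adjusted p = 0.775 with limma). Ndufs8 read 10.50, 10.21, 10.81 and 10.57 in F1, against 10.34, 10.07, 10.35 and 10.50 in CT, a difference of 0.21 ± 0.17 with overlap.

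The copy gene Ndufb4b read 12.00, 11.71, 11.81 and 11.71 in liver F1, against 12.02, 11.95, 11.97 and 11.92 in liver CT, and liver F1 1 lay within the CT range. Ndufa9, which binds a nicotinamide cofactor where the arms meet, read 11.29, 10.39, 10.37 and 10.45 in F1, against 10.78, 10.89, 10.90 and 10.90 in CT. Library liver F1 1 stood above all CT libraries and the other 3 F1 libraries below them, and the difference was -0.24 ± 0.21. Ndufb2, a membrane-arm subunit, read 8.51, 8.36, 8.16 and 8.67 in F1, against 8.64, 8.14, 9.06 and 8.82 in CT, with overlap. Ndufs1 read 11.82, 10.92, 11.34 and 11.61 in F1, against 10.73, 11.58, 11.55 and 10.87 in CT, and its CT libraries formed a low and a high pair. Ndufa7 read 6.26, 6.82, 5.91 and 6.08 in F1, against 6.01, 6.12, 6.35 and 5.83 in CT, and liver F1 2 alone exceeded the CT range. Library liver F1 4, the one with pancreas transcripts, had the highest median over members of the liver libraries, 10.93, against 10.54 to 10.82 in the other F1 libraries and 10.76 to 10.84 in CT.

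The F1 effect in eWAT was set against that in liver as an interaction over all 16 libraries. It was positive, that is larger in eWAT, in 36 of 38 members, with a median of 0.40 against 0.00 over all genes. With limma 0 of 38 members were called, where 0.0813% of 14760 genes were. At an unadjusted p under 0.05, 7 of 38 members were larger in eWAT and 0 smaller, where 4.97% of all genes were larger at that p. These 7 were Ndufb9 (0.86 ± 0.30), Ndufb6 (0.93 ± 0.35), Ndufa10 (0.76 ± 0.32), Ndufs3 (0.54 ± 0.24), Ndufb8 (0.85 ± 0.38), Ndufa6 (0.52 ± 0.23) and Ndufb4b (0.58 ± 0.26), with adjusted p-values from 0.370 to 0.483 (limma). The other 2 were Ndufs1 (-0.04 ± 0.36) and Ndufa4l2, whose liver mean lay below the dim limit, so that its value is not read here. Without eWAT F1 1, eWAT CT 4 and liver F1 4, a choice made after seeing the data, the median was 0.31 and 4 members had an unadjusted p under 0.05. Leaving out single libraries, that count was 2 without eWAT F1 1 or liver F1 2, 3 without liver F1 3 or liver CT 4, and 4 without liver CT 3 or eWAT CT 3. Since 0 members were called, the members' F1 effect was not shown to differ between the tissues.

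Promoters were read for short DNA motifs that regulators of mitochondrial genes are known to bind. RefSeq windows of assembly GRCm38.p6, from 250 bases before to 50 bases after an annotated start, were found for 34 of the 38 members (36 windows). The motif AAGATGGC of the factor YY1 was in 7 of 36 windows (19.4%), against 2.75% of all 32851 promoter windows and 3.10% of the windows of genes on the array. Each match lay on the gene's own strand, 22 to 38 bases past the start. The motif contains the letters ATG, and whether these matches lie at the start of the coding sequence was not tested. The stretches of 30 bases around the matches are shown because their place and strand were alike, with the motif in capitals.

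Ndufa3, chr7:3617384-3617413, plus strand: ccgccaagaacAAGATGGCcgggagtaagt
Ndufa9, chr6:126849097-126849126, minus strand: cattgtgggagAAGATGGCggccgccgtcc
Ndufb8, chr19:44555393-44555422, minus strand: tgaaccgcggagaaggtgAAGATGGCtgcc
Ndufc1, chr3:51408915-51408944, minus strand: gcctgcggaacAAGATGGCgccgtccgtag
Ndufs4, chr13:114388045-114388074, minus strand: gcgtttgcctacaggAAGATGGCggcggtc
Ndufs6, chr13:73328433-73328462, minus strand: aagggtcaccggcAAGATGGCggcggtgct
Ndufs7, chr10:80249462-80249491, plus strand: aggccgaggccAAGATGGCggcgctggcgg

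The motif GCGCATGC of NRF1, the nuclear respiratory factor, was in 3 of 36 windows on either strand (8.33%), against 2.71% of all windows and 3.66% of the windows of genes on the array. In Ndufa11 it occurs on both strands in overlapping letters, of which the match on the gene's strand is shown. The members with this motif are shown with it in capitals.

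Ndufa11, chr17:56717691-56717720, plus strand: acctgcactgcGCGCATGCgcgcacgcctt
Ndufa6, chr15:82354356-82354385, minus strand: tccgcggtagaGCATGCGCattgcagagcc
Ndufa8, chr2:36049328-36049357, minus strand: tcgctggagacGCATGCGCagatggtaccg

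The motif CCGGAAG of the ETS family, which includes the respiratory gene activator GABPA, was in 4 windows (11.1%), those of Ndufb6, Ndufb7, Ndufs3 and Ndufs8, against 8.86% of all windows and 11.8% of those of genes on the array. It occurs on both strands of the Ndufs3 window, and the match before the start is shown because Ndufs3 was among the members with the smallest p in eWAT.

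Ndufs3, chr2:90904730-90904759, minus strand: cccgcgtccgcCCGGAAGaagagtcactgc

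The estrogen-related receptor motif CAAGGTCA was in the Ndufs5 window alone (2.78%, against 1.56% of all windows and 1.26% of those of array genes), and the TATA box TATAAA was in 13.9% of the members' windows, against 13.6% of all and 12.3% of those of array genes. All motifs were searched on both strands. The median GC content was 59.0% in the members' windows, 52.7% in all windows and 57.0% in those of genes on the array. The eWAT differences of members with and without a motif overlapped. Members with the YY1 motif differed by 0.17 to 0.71 (median 0.35, 7 genes), against 0.09 to 0.65 (median 0.45, 27 genes) without it, and those with the NRF1 motif by 0.20 to 0.50 (median 0.28, 3 genes).

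Genes around the complex were described from lists of the assembly factors, of regulators and of mitochondrial content. In eWAT, 11 of 19 assembly factors had a higher mean in F1, 4 had an unadjusted p under 0.05 (3 higher, 1 lower), and 0 were called. Of all genes tested in eWAT, 9.99% had such a p in either direction. Aifm1, which works with the import protein Chchd4, read 10.46, 9.80, 9.90 and 9.46 in F1, against 9.14, 9.03, 9.23 and 9.37 in CT, a difference of 0.71 ± 0.22 (adjusted p = 0.389 with limma). Its F1 libraries all lay above CT, whereas Dmac2, a membrane-arm assembly factor, was lower at 8.27, 8.72, 8.20 and 8.07 in F1, against 8.91, 8.70, 9.07 and 8.77 in CT. Ndufaf2, a late assembly factor, differed by 0.92 ± 0.33 in eWAT with overlap. In liver it differed by 0.77 ± 0.28 with overlap, followed by Ndufaf6 (-0.51 ± 0.24) and Tmem186 (0.35 ± 0.17), and 0 of 19 factors were called.

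Of the regulators of mitochondrial biogenesis, 10 of 16 had a higher mean in eWAT F1, 4 had an unadjusted p under 0.05, all higher, and 0 were called. Ppara, a receptor that activates fatty acid oxidation genes, differed by 0.97 ± 0.33, Tfb2m, a mitochondrial transcription factor, by 0.44 ± 0.17, and the mitochondrial deacetylase Sirt3 by 0.42 ± 0.17. In liver, Ppargc1b, a coactivator of mitochondrial genes, read 10.03, 10.14, 11.30 and 10.32 in F1, against 7.90, 8.49, 8.47 and 9.27 in CT. All F1 values exceeded all CT values, and the difference of 1.92 ± 0.34 (3.77-fold) had an adjusted p of 0.0751 (limma), above the threshold. The related coactivator Pprc1 differed by -0.70 ± 0.26 and Sirt3 by -0.33 ± 0.15 in liver, and 0 of 15 regulators were called there. Among mitochondrial content markers, 16 of 19 had a higher mean in eWAT F1, with a median difference of 0.10, and 0 had an unadjusted p under 0.05. The nearest were Cycs, the electron carrier cytochrome c (0.41 ± 0.19), the import receptor Tomm20 (0.51 ± 0.25) and the inner-membrane scaffold Phb (0.27 ± 0.14). In liver, 9 of the 19 markers had a higher and 10 a lower mean in F1, with a median difference of -0.02. Of the 19, 0 were called. At an unadjusted p under 0.05, 3 were lower and 0 higher, where 9.14% of all genes tested in liver reached that p in either direction. These 3 were citrate synthase (Cs, -0.58 ± 0.17), the pyruvate dehydrogenase subunit Dlat (-0.73 ± 0.22) and the import protein Timm44 (-0.48 ± 0.16). Their adjusted p-values were 0.313 to 0.387 (limma).

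Levels in liver were set against levels in eWAT, within F1 and within CT, relative to the middle gene of each library. This scale was used because the deposited values had library medians between 5.21 and 5.24 in liver, against 6.34 to 6.56 in eWAT, so the tissues appear to have been normalized separately. Within F1, 24 of 38 members were called higher and 4 lower in liver, where 48.5% and 25.3% of all 14774 genes were. Within CT, 32 of 38 members were called higher and 2 lower in liver, where 48.3% and 25.6% of all 14755 genes were. The members' median difference was 0.83 in F1 and 1.19 in CT, above the medians of all genes, 0.51 in each. On the deposited values the medians were -0.52 in F1 and -0.15 in CT, and those of all genes -0.84 in each. In F1, 2 members were then called higher and 20 lower, where 18.3% and 57.3% of all genes were. In CT, 5 were called higher and 10 lower, where 17.9% and 57.3% of all genes were. After quantile normalization over both tissues the members' medians were 0.43 in F1 and 0.76 in CT. In F1, 14 members were then called higher and 7 lower, where 33.3% and 33.6% of all genes were, and in CT 25 were called higher and 4 lower, where 33.4% and 34.1% of all genes were. The direction between tissues thus flipped with the scaling for the members as a group. Setting library medians equal shifts all genes alike, so the members' median lay 0.32 in F1 and 0.69 in CT above that of all genes both on that scale and on the deposited values, and 0.40 and 0.75 above it after quantile normalization.

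**Figure D5:**
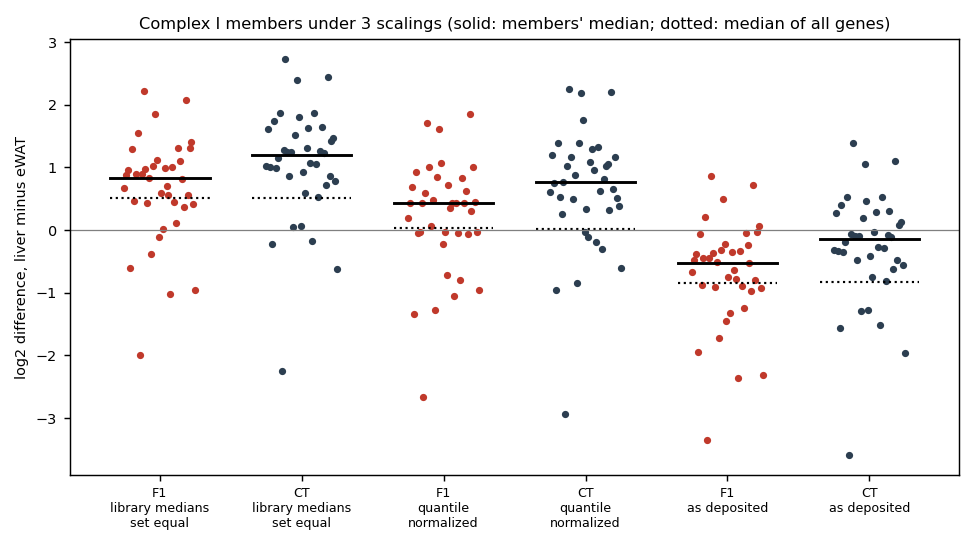
Liver minus eWAT difference on the log2 scale (vertical axis) of each member in F1 and in CT under 3 scalings, with solid lines for the members' median and dotted lines for the median of all genes. The solid line lies above the dotted line in all 6 columns, and both move below 0 on the deposited values.

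Among the members above the dim limit in both tissues, Ndufa6, Ndufs6 and Ndufv3 were called in the same direction in F1 and in CT under all 3 scalings. Ndufa6 read 11.79, 11.98, 12.21 and 12.08 in liver F1, against 11.16, 11.02, 11.11 and 11.29 in eWAT F1, and relative to the middle gene it was higher in liver by 2.22 ± 0.17 in F1 and by 2.73 ± 0.19 in CT (adjusted p = 5.57e-07 and 2.82e-07 with limma). Ndufs6, a zinc-binding subunit added late in assembly, read 10.53, 10.64, 10.00 and 10.47 in liver F1, against 9.96, 9.67, 9.41 and 9.69 in eWAT F1, and was higher by 2.07 ± 0.20 in F1 and by 2.45 ± 0.26 in CT. For both genes all liver libraries exceeded all eWAT libraries on the deposited scale. Ndufb11, a membrane-arm subunit, was higher by 1.85 ± 0.23 in F1 and by 2.40 ± 0.22 in CT, although the call in F1 was lost on the deposited values (0.50, adjusted p = 0.0718 with limma).

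The counts called lower in liver include Ndufa4l2, for which no difference is given because its liver mean lay below the dim limit. Its liver values are given above, and its eWAT libraries read 7.12 to 7.61. Lower in liver was Ndufv3, by -0.96 ± 0.21 in F1 and -0.63 ± 0.24 in CT (adjusted p = 0.00185 and 0.0337 with limma). The Ndufv3 call in CT was lost when any of liver CT 1, 2 or 4 or eWAT CT 1 or 2 was left out (adjusted p = 0.0680 to 0.0940 with limma). Ndufv3 read 6.75, 7.03, 6.05 and 6.87 in liver F1, against 9.05, 8.92, 8.95 and 9.02 in eWAT F1, and 6.53, 6.39, 7.03 and 6.33 in liver CT, against 8.86, 8.82, 8.02 and 8.44 in eWAT CT. The subunit comes in forms that differ between tissues, and which form the probe set reads was not tested. Ndufb8 read 7.24, 6.48, 6.73 and 7.70 in liver F1, against the eWAT F1 values of 9.23 to 9.57 given above, and was called lower in liver in F1 (-1.02 ± 0.26, adjusted p = 0.00407 with limma) and not in CT (-0.17 ± 0.26). In CT it was called lower on the deposited values (-1.51, adjusted p = 0.000326 with limma) and not after quantile normalization (-0.20). The difference between these values is the interaction of 0.85 ± 0.38 given above, which was not called. Ndufa12, an accessory subunit of the matrix arm, differed by -0.61 ± 0.18 in F1, a call, and by -0.23 ± 0.18 in CT, not a call. In CT it was called lower on the deposited values (-1.57, adjusted p = 1.16e-05 with limma) and after quantile normalization (-0.95, adjusted p = 0.000779 with limma).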

How the data were processed

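RNA (150 ng per sample) was amplified and hybridised to Affymetrix mouse arrays. Per the submitters' processing notes, the authors made the deposited log2 values with RMA in Transcriptome Analysis Console 4.0, which corrects background, normalizes arrays and summarises probes. Names come from the platform's annotation, in which 19572 of 22206 probe sets had 1 symbol. Gene names from RefSeq (GRCm38.p6) changed 0 of them. No build of the probe sets is given in the sources used here, so coordinates are given only for RefSeq promoter stretches. Arrays have no read depth, and 4 arrays per group limit the precision.

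Each tissue was fitted alone with limma 3.58.1 in R 4.3.3 (lmFit, eBayes), leaving out genes below the 25th percentile of probe-set means, with Benjamini-Hochberg adjustment over all genes and a call at 0.05. The interaction used 16 libraries. Tissue comparisons used library medians set equal. The fits were also run on simulated data, with genes drawn independently and set differences larger than any F1 minus CT difference of the members. That run does not show how the fits treat differences of the members' size. Alternatives were other filters, eBayes settings, weights, scalings, a replicate block and leaving out each replicate. Same-numbered F1 and CT samples did not deviate together (r from -0.06 to 0.06 in liver and from -0.31 to 0.21 in eWAT), so numbers were not used to pair them. For same-numbered liver and eWAT samples r ran from 0.03 to 0.05 in F1 and from 0.01 to 0.04 in CT. The sample titles do not say whether both tissues came from the same mice, and the main fits treated the libraries as independent.

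The members and lists were chosen with earlier results of these data known. The seminal vesicle list and the motifs were chosen after further results had been seen. Values in every library are given for the 6 members with the smallest p per tissue, up to 4 members of opposite sign to the median, the brightest and dimmest members, and others shown as examples. Where most members were called, between tissues, they are given for those that differ most, which departs from a rule to give them for every called member. Lists name up to 3 genes by smallest p per comparison.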

Additional observations from a re-analysis of the deposited data

Results flagged for a closer look

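Each of the 38 members and their median were checked within each of the 4 groups of 4 libraries, and 9 of these 156 checks found a library whose gap to the nearest other library was unusually large for the range of the group. Chance flags about 1 in 20 such checks. In liver F1, Ndufa9 stood at 11.29 in library 1, while its group otherwise read 10.37 to 10.45, Ndufa13 read 11.11 in F1 2 against 10.81 to 10.83, Ndufc1 read 10.51 in F1 3 against 11.24 to 11.37, and Ndufv2 read 11.51 in F1 4 against 10.67 to 10.77. In liver CT, Ndufa2 and Ndufa5 were low in the same library, CT 2, at 10.95 against 11.28 to 11.32 and at 9.89 against 10.38 to 10.44, and Ndufa9 read 10.78 in CT 1 against 10.89 to 10.90. In eWAT, Ndufc2 read 14.05 in F1 1, above the 13.56 to 13.61 of the other F1 libraries, and Ndufa9 read 11.29 in CT 2 against 10.83 to 10.90 in the other CT libraries. Ndufc2 is among the members with the smallest p in eWAT, and without eWAT F1 1 its groups still did not overlap. Ndufa9 appears in 3 of the groups, each time through another library.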

How the results depend on the processing

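In eWAT, 0 members were called under all 20 alternatives, 34 to 38 of 38 had a higher mean in F1, and the median difference ran from 0.28 to 0.48. Leaving out single replicates moved it from 0.33 (without eWAT F1 1) to 0.45, with 10 to 16 members at an unadjusted p under 0.05 (10 without eWAT F1 1 and 10 without eWAT F1 3) and 0 to 1 genes called. Without both libraries with male tract transcripts the median was 0.28 and that count 9. It was 4 within the libraries with lower and 5 within those with higher hepatocyte transcripts (2 libraries per group), and Ndufa4l2 turned to 0.16 in those with higher ones. In 1 fit over 16 libraries 25 genes were called, 0 of them members.

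In liver, 0 members were called under all 16 alternatives. Genes called were 74 with trend and robust, 51 in the fit over 16 libraries, 35 after centring, 6 with the replicate block, and 7 to 24 leaving out single replicates, with 0 to 1 members at an unadjusted p under 0.05. For the interaction, 36 genes were called with trend and robust and 7 to 25 leaving out single replicates, with 2 to 10 members at an unadjusted p under 0.05 and 4 without the libraries with male tract or pancreas transcripts.

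Between tissues, the F1 median was -0.52 on the deposited values (2 members called higher, 20 lower) and 0.43 after quantile normalization (14 higher, 7 lower). The CT median was -0.15 (5 higher, 10 lower) and 0.76 (25 higher, 4 lower). In CT, 1 member was called lower with the replicate block, and 1 to 2 leaving out single replicates, since the Ndufv3 call was lost. With the replicate block, eWAT had 13 members at an unadjusted p under 0.05 and 0 called. The causes were not tested. Ndufa4l2, below the dim limit in liver, was tested there only without the filter, where it was not called.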
